A study of Mus musculus with 4 samples.

Results

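The genes described here are 41 interferon-stimulated genes, the antiviral and immune genes that cells switch on in response to interferons, measured by messenger RNA sequencing in the mouse lung epithelial line MLE-12. They were taken from a list of names and make up 41 of the 46078 genes in the deposited count table. The list was chosen with earlier results of these data known, so shares of members beside shares of all genes are description only. The libraries come from a study of Lingo1 in the repair of an epithelial wound. Lingo1 encodes a leucine-rich repeat membrane protein known as a partner of the Nogo receptor in neurons. MLE-12 was derived from lung tumours of transgenic mice that express the large T antigen of SV40 under the human surfactant protein C promoter, so every library comes from 1 immortalised line. The 4 conditions, with 1 library each, were cells labelled Lingo1 KO at 24 hours after a scratch, unscratched cells labelled Lingo1 KO, wild-type (WT) cells at 24 hours after a scratch, and unscratched WT cells. How the knockout was made, and whether its cells descend from 1 clone, is not given in the sources used here. No library had an added interferon or a virus in its label.

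In a cell that senses viral RNA or DNA, sensors such as MDA5 and RIG-I signal through the adaptor MAVS and the kinase TBK1 to induce type I and type III interferons. The secreted interferons bind receptors that activate JAK1 and TYK2, and these kinases phosphorylate STAT2, which acts with IRF9 in the complex ISGF3. ISGF3 binds the interferon-stimulated response element (ISRE), while the gamma-activated site (GAS) serves above all the response to type II interferon. In lung epithelium the products of the responding genes degrade viral RNA, block its translation or trap virions, and many of the genes also have a basal level in cells without an infection.

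Promoter stretches with ISRE cores are printed first for 8 members, to show the letters that the complex is known to read. RefSeq promoter windows on GRCm38.p6, from 250 bases before to 50 bases after the start of a gene, were available for 31 of the 41 members. The ISRE core was searched on both strands as GAAA, any 2 bases and GAAA again, and was found in 13 of the 31 members, or 41.9%, against 1079 of the 27025 genes with a window, or 3.99%. The GAS motif was searched as TTCNNNGAA, a palindrome that reads alike on both strands, and was found in 8 of the 31 members, or 25.8%, against 9.55% of all genes. The sequences run 5′ to 3′ on the strand of the gene, and capitals mark every ISRE core, which reads GAAA, 2 bases, GAAA or, where it lies on the other strand, TTTC, 2 bases, TTTC.
Isg15 (chr4:156200850-156200939, minus strand): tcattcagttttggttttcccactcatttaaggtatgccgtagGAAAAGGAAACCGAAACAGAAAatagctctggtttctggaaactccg
Oas1a (chr5:120907526-120907615, minus strand): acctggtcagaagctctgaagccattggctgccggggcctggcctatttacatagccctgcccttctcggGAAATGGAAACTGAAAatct
Gbp2 (chr3:142620549-142620638, plus strand): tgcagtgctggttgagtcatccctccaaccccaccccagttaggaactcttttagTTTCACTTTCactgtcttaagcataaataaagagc
Gbp7 (chr3:142530228-142530317, plus strand): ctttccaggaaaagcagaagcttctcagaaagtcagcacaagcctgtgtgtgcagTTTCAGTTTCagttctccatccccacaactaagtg
Stat2 (chr10:128270248-128270337, plus strand): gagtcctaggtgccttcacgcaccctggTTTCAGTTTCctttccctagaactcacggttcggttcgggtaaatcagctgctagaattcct
Ifit1 (chr19:34640749-34640838, plus strand): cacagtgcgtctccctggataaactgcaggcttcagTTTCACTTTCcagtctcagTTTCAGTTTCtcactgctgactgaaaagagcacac
Ifit3 (chr19:34583352-34583441, plus strand): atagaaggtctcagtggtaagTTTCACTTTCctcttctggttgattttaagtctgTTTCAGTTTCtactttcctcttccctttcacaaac
Bst2 (chr8:71537562-71537651, minus strand): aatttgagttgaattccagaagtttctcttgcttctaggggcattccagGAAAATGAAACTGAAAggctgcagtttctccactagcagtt
In Isg15 3 cores overlapped in 1 run of capitals, and in Oas1a and Bst2 2 cores did so. Ifit1 and Ifit3 each carried 2 separate cores. A match is a run of letters and not a demonstration of binding, and a member without a match lacks only these letters in this window.

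**Figure D1:**
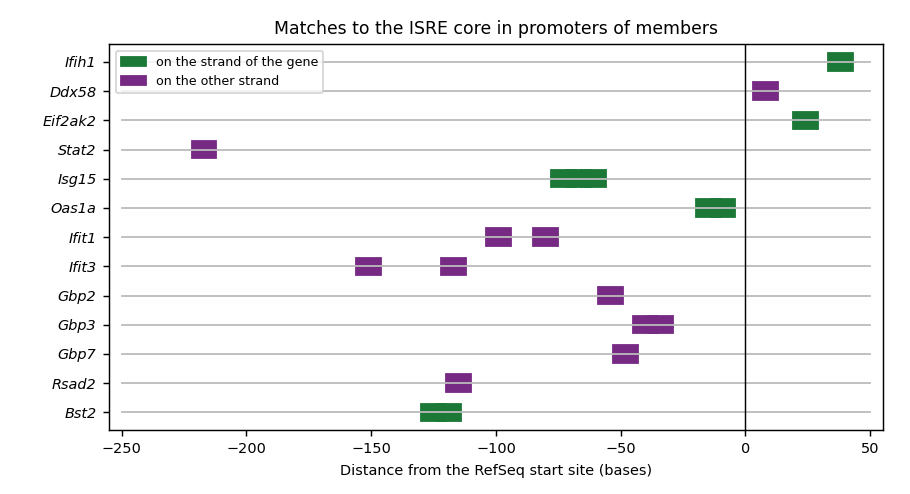
Positions of matches to the ISRE core (coloured boxes) along the promoter window of the 13 members that hold one, in bases from the RefSeq start site at 0; green boxes lie on the strand of the gene and purple boxes on the other strand. Of the 13 members, Ifih1, Ddx58 and Eif2ak2 had their match after the start site and the others before it.

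The libraries held 48333801 counts in scratched and 29533746 counts in unscratched KO-labelled cells, against 27907279 counts in scratched and 26903429 counts in unscratched WT cells. Lingo1 itself was at 41.4 and 41.2 CPM (counts scaled to a common library size with TMM factors) in scratched and unscratched KO-labelled cells, against 42.9 and 46.4 CPM in scratched and unscratched WT cells, with a log2 difference of -0.11 ± 0.06 that did not pass (edgeR adjusted p = 0.216). Both KO-labelled libraries lay below both WT libraries, as for 27.6% of all genes, but by little, with ratios of 0.966 after the scratch and 0.889 without it. Genotypes are therefore given as labelled throughout. In the deposited tables only the scratched columns carry a letter that the labels explain. The other columns were taken for the unscratched cells, the one remaining condition, and each statement on the scratch depends on that.

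Some other genes differed between the labelled genotypes by more than any of the 41 members did. The surfactant genes Sftpb and Sftpc rose by 2.05 ± 0.06 and 1.74 ± 0.10 on the log2 scale in KO-labelled cells (edgeR adjusted p = 2.08e-20 and 1.13e-12), and the collagen gene Col1a1 rose by 3.31 ± 0.07 (edgeR adjusted p = 2.72e-23). The summed level of the 10 alveolar epithelial markers was 1532 and 1496 CPM in scratched and unscratched KO-labelled cells, against 1446 and 1409 CPM in scratched and unscratched WT cells. Among these markers Cdh1 was at 712 to 859 CPM and Nkx2-1 at 128 to 163 CPM over the 4 libraries, Sftpa1 and Sftpd had no read, and Krt18 had 4 to 10 reads, so the epithelial label held only for part of its markers. The 8 fibroblast markers summed to 2663 and 2912 CPM in KO-labelled and 2837 and 2868 CPM in WT cells, scratched before unscratched, most of it decorin (Dcn), while Tcf21 was at 0. The sum hides that 3 of the 4 tested fibroblast markers, Col1a1, Pdgfra and Pdgfrb, rose in KO-labelled cells and were called higher both after the scratch and without it. Pdgfra was at 1.94 and 2.30 CPM in scratched and unscratched KO-labelled cells, against 1.15 and 1.29 CPM in scratched and unscratched WT cells, and Pdgfrb had 135 and 67 reads in KO-labelled cells, against 1 and 0 reads in WT cells, in the same order. DESeq2 kept the calls of Col1a1 and Pdgfrb and not that of Pdgfra. The 6 endothelial markers summed to 179.9 to 219.8 CPM, nearly all Tek, with Cdh5 and Emcn at 0. Of 16 leukocyte markers, 6 had no read in any library, among them Ptprc, Adgre1 and Tyrobp, and the sum over the list was 4.41 and 4.50 CPM in scratched and unscratched KO-labelled cells, against 4.84 and 5.05 CPM in scratched and unscratched WT cells. What these marker differences contribute to the levels of interferon-stimulated genes was not tested.

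Interferon-stimulated genes had a graded basal expression without any detectable interferon gene. None of the 11 interferon genes examined (Ifnb1, Ifna1, Ifna2, Ifna4, Ifna5, Ifna11, Ifne, Ifnk, Ifnl2, Ifnl3 and Ifng) had a read in any library, which allows up to 0.0626, 0.101, 0.108 and 0.111 CPM in the scratched and unscratched KO-labelled and the scratched and unscratched WT library. By the authors' deposited RPKM values, which divide by gene length and so allow genes to be compared, Bst2 was the most abundant member. Bst2 encodes tetherin, which holds budding virions at the cell surface, and had 82.0 and 84.1 RPKM in scratched and unscratched KO-labelled cells, against 76.3 and 74.0 RPKM in scratched and unscratched WT cells. Ifi27, a small interferon-alpha-inducible gene, followed with 51.0 and 56.3 RPKM in KO-labelled and 50.6 and 47.4 RPKM in WT cells, in the same order. The transcription factor gene Irf1 was at 28.0 to 31.8 RPKM, Ifit2 at 24.9 to 30.8 RPKM and the ubiquitin ligase gene Trim25 at 21.0 to 22.9 RPKM over the 4 libraries. The ranges of Irf1 and Ifit2 over the libraries overlapped, although Irf1 was above Ifit2 within each library. Whether those neighbours in the order differ was not tested. Bst2 and Ifi27 stood apart from all the other members in every library.

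At the other end were genes that a strong interferon response induces from near 0. Rsad2, which encodes the antiviral enzyme viperin, had 7 and 7 reads in scratched and unscratched KO-labelled cells, against 8 and 3 reads in scratched and unscratched WT cells. Mx1, a dynamin-like GTPase gene that is disrupted in most inbred laboratory strains, had 0 to 5 reads, and Zbp1, a sensor of Z-form nucleic acids, had 0 to 4 reads over the 4 libraries. Oas2 had 11 and 5 reads in KO-labelled cells, scratched before unscratched, against 9 and 13 reads in WT cells, and Mx2, annotated as a polymorphic pseudogene, had 14 to 35 reads. These 5 genes never reached 1 CPM and were not tested, which leaves 36 tested members among 12348 tested genes. Of the 41 members, 41 and 40 had at least 1 read in scratched and unscratched KO-labelled cells, and 41 and 40 did in scratched and unscratched WT cells. The levels of all members summed to 1028.5 and 1077 CPM in scratched and unscratched KO-labelled cells, against 1132.2 and 1101.4 CPM in scratched and unscratched WT cells.

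**Figure D2:**
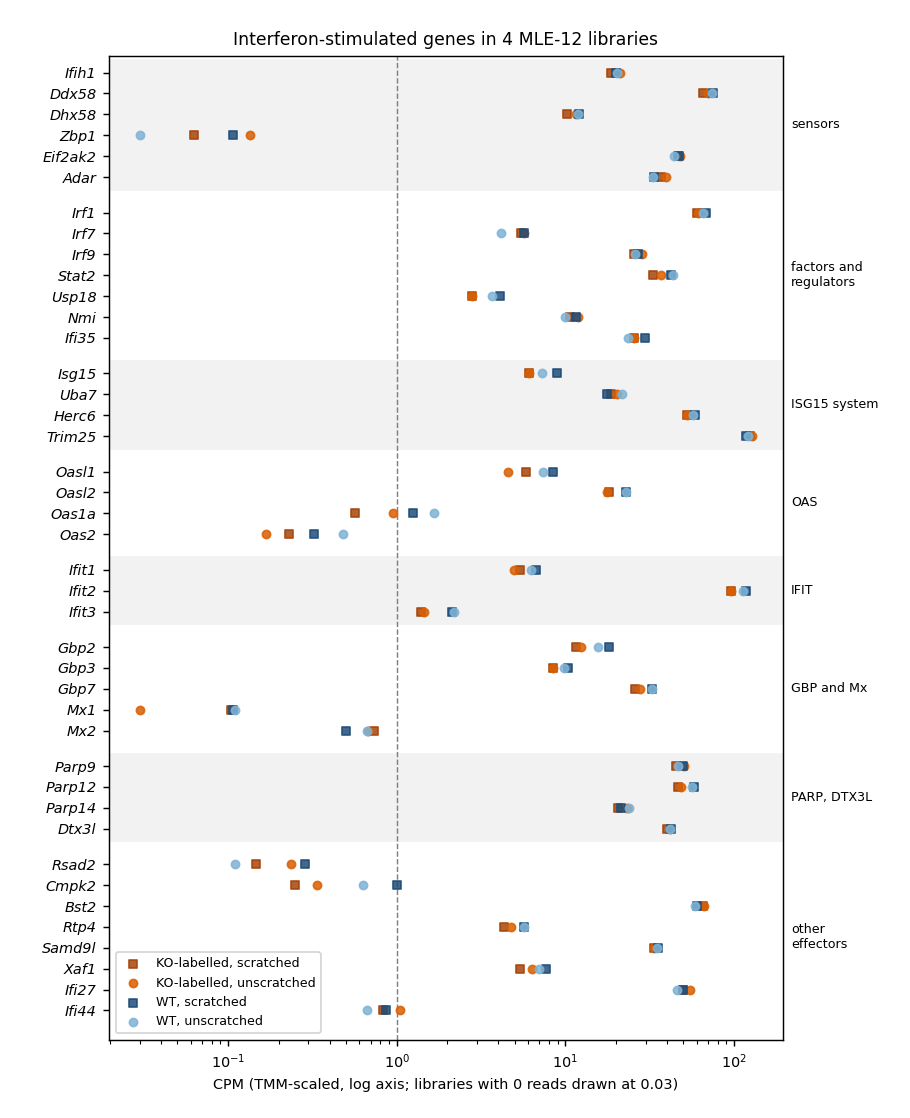
Level of each of the 41 members (CPM, log axis) in the 4 libraries, with squares for scratched and circles for unscratched cells, orange for KO-labelled and blue for WT cells; the dashed line marks 1 CPM, and libraries with 0 reads are drawn at 0.03. Members range from under 1 CPM (Rsad2, Mx1, Zbp1, Oas2, Mx2) to over 100 CPM (Trim25), and the orange points lie left of the blue ones for most OAS, IFIT and GBP genes.

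More members were lower than higher in KO-labelled cells, by small amounts. In an additive fit of genotype and scratch over the 4 libraries (edgeR's quasi-likelihood test with Benjamini-Hochberg adjustment over all 12348 genes), 13 of the 36 tested members fell, or 36.1%, against 12.2% of all genes, and 2 rose, or 5.56%, against 13.8% of all genes. Of the 13, Oas1a and Cmpk2 reached the 1 CPM needed for testing in WT libraries only, which favours a fall. Ifi44 reached it only in unscratched KO-labelled cells and did not pass. The median log2 difference was -0.14 over the members and 0.004 over all genes. Both KO-labelled libraries lay below both WT libraries for 22 of the 36 members, or 61.1%, where 27.6% of all genes did, and above both for 4 members, or 11.1%, where 28.6% of all genes did. This fit has 1 residual degree of freedom and estimates spread only from unequal scratch responses of the genotypes, so its p-values compare these libraries and not replicate cultures. The calls depend on the tool. DESeq2's Wald test on the same design called 967 of the 12348 genes in either direction and 1 of the 36 members, Ifit2. At an unadjusted DESeq2 p under 0.05, 7 members were lower and 0 higher. No share of all genes at that cutoff is given here, so those 7 cannot be set against a background. In bulk RNA of this kind, fewer expressing cells and less RNA per cell cannot be told apart.

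Between pairs of libraries more members were called lower after the scratch than without it. A gene was called between 2 libraries when its CPM ratio was at least 1.3-fold and the exact 95% Clopper-Pearson interval, which covers counting error only, excluded 1. After the scratch, 9 of the 36 members were lower in KO-labelled cells, or 25%, against 4.15% of all genes, and 0 were higher, against 5.85% of all genes. Without a scratch, 2 members were lower, a share of 5.56% close to the 5.93% of all genes, and 1 was higher, against 7.17% of all genes. The median log2 ratio of members was -0.21 after the scratch and -0.10 without one, with 31 and 24 of the 36 members below 0. Over all genes the medians were 0.002 and 0.007, with 49.5% and 48.5% below 0. Oasl1 and Oas1a were lower in both states. Oas1a and Cmpk2, both called lower after the scratch, reached 1 CPM in WT libraries only. The scratched KO-labelled library was the deepest, which narrows its counting intervals, and the difference between the states was not tested.

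**Figure D3:**
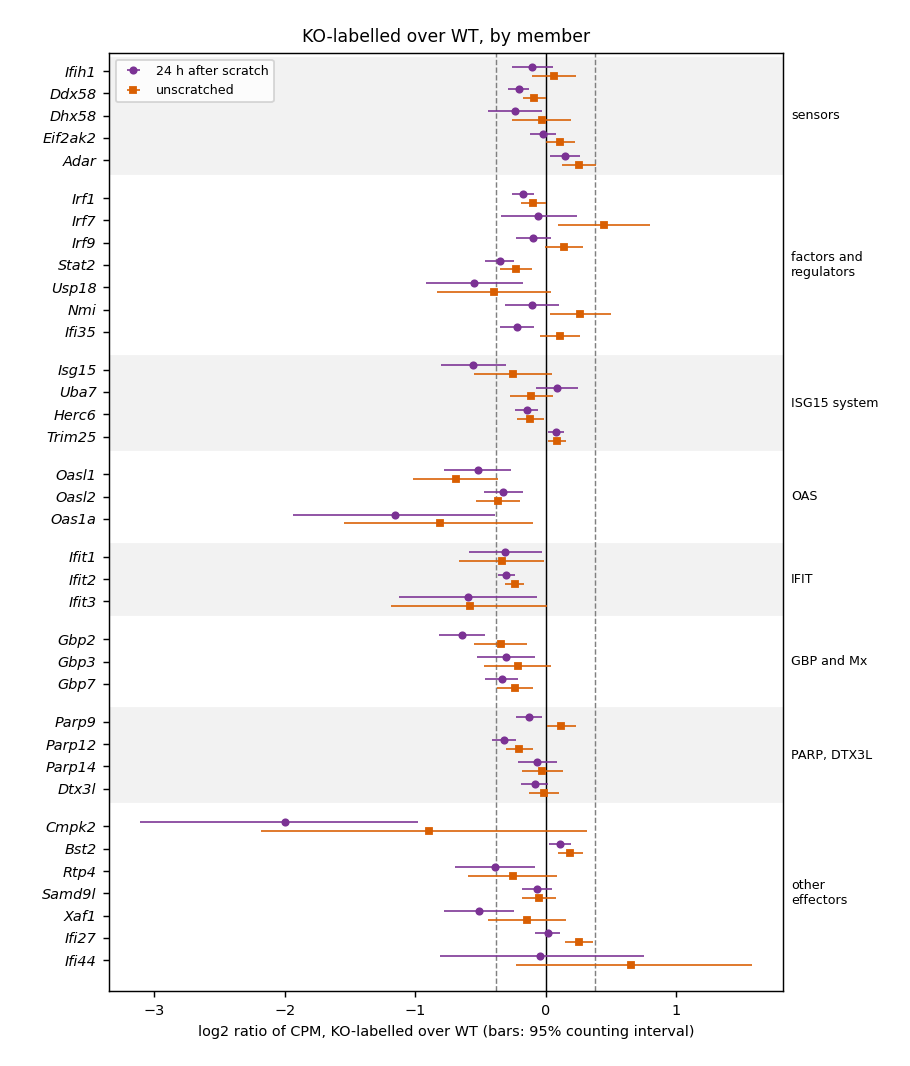
The log2 ratio of CPM, KO-labelled over WT, for the 36 tested members after the scratch (purple circles) and without it (orange squares), with 95% counting intervals as bars; dashed lines mark 1.3-fold and the groups follow the roles of the genes. After the scratch 9 members lay below the lower dashed line with an interval off 0, and none lay above the upper one.

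The group of sensors of viral RNA and DNA held 5 tested members, of which 1 rose and 1 fell. The 1 that rose, Adar, is not itself a sensor. Adar, which encodes the enzyme that deaminates adenosines in double-stranded RNA and so keeps self RNA from the sensors, was at 37.1 and 39.3 CPM in scratched and unscratched KO-labelled cells, against 33.4 and 32.9 CPM in scratched and unscratched WT cells. Both KO-labelled libraries were above both WT libraries, by 0.20 ± 0.07 on the log2 scale (edgeR adjusted p = 0.0315). Ddx58, the gene of RIG-I, was at 65.1 and 70.0 CPM in KO-labelled and 75.1 and 74.3 CPM in WT cells, in the same order, and fell by 0.15 ± 0.05 (edgeR adjusted p = 0.0354). The groups did not overlap, but each ratio stayed under 1.3-fold. Ifih1, the gene of MDA5, Dhx58, the gene of LGP2, and Eif2ak2, the gene of the kinase PKR, had log2 differences of -0.02, -0.14 and 0.04 and did not pass. Exons of Adar overlap Chrnb2 on the opposite strand, and whether the counting used strand is not given in the sources used here.

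The transcription factors and regulators included the complex that drives the response. Stat2, a subunit of ISGF3 with an ISRE core in its own promoter, was at 33.1 and 37.1 CPM in scratched and unscratched KO-labelled cells, against 42.3 and 43.5 CPM in scratched and unscratched WT cells. It fell by 0.29 ± 0.07 (edgeR adjusted p = 0.00156), and the groups did not overlap. Its partner Irf9 overlapped between the genotypes, at 25.4 and 28.7 CPM in KO-labelled and 27.1 and 26.0 CPM in WT cells, with a log2 difference of 0.02 ± 0.08. Exons of Irf9 overlap Rnf31 on the same strand. Usp18, which removes ISG15 from proteins and dampens receptor signalling, had 2.80 CPM in both KO-labelled libraries, against 4.09 and 3.69 CPM in scratched and unscratched WT cells. It fell by 0.48 ± 0.17 (edgeR adjusted p = 0.0363), and its ratio after the scratch was 0.685 (95% interval 0.529 to 0.887).

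Irf7, the factor that amplifies type I interferon production, did not follow this pattern. It was at 5.45 and 5.68 CPM in scratched and unscratched KO-labelled cells, against 5.66 and 4.17 CPM in scratched and unscratched WT cells. The unscratched WT library alone was low, and the 3 other libraries lay close together. Its ratio of KO-labelled to WT cells was 0.962 (0.787 to 1.18) after the scratch and 1.36 (1.07 to 1.74) without it, the 1 member called higher, and the additive fit gave 0.17 ± 0.14 (edgeR adjusted p = 0.414). Reads of Irf7 may include those of Phrf1, whose exons overlap it on the opposite strand. Irf1, Nmi and Ifi35 did not pass, at log2 differences of -0.14, 0.07 and -0.06, although Irf1 came close (edgeR adjusted p = 0.0522) and passed in 3 of the alternative fits.

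ISG15 is a ubiquitin-like protein that the activating enzyme UBA7 and ligases such as HERC6 attach to other proteins. Isg15, with 3 overlapping ISRE cores, was at 6.10 and 6.12 CPM in scratched and unscratched KO-labelled cells, against 8.96 and 7.27 CPM in scratched and unscratched WT cells. It fell by 0.42 ± 0.12 (edgeR adjusted p = 0.0107), and the ratio was 0.680 (0.573 to 0.809) after the scratch and 0.842 (0.684 to 1.04) without it, so the second interval included 1. The conjugation genes did not share this size of difference. Uba7 was at 18.7 and 20.2 CPM in KO-labelled cells, against 17.7 and 21.8 CPM in WT cells, scratched before unscratched, and Herc6 was at 52.9 CPM in both KO-labelled libraries, against 58.5 and 57.3 CPM in WT cells. Neither passed the test (edgeR adjusted p = 0.941 and 0.0706), and Trim25, which ubiquitinates RIG-I, had a log2 difference of 0.08 (edgeR adjusted p = 0.321).

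All 3 tested OAS members fell, where 12.2% of all genes did. Of the 3, Oas1a reached the 1 CPM needed for testing in WT libraries only, so the filter favoured its fall. Other genes of the family did not pass, with log2 differences of 0.02 for Oas1c and -0.15 for Oas1b (edgeR adjusted p = 0.945 and 0.600). The ratio of Oas1b was 0.707 (0.540 to 0.927) after the scratch, which was called, and 1.19 (0.875 to 1.62) without it. The OAS enzymes make oligoadenylates that activate RNase L, and the OAS-like proteins are their relatives. Oasl1, which in mice restrains the translation of Irf7, was at 5.87 and 4.60 CPM in scratched and unscratched KO-labelled cells, against 8.42 and 7.42 CPM in scratched and unscratched WT cells. Its ratio was 0.696 (0.584 to 0.832) after the scratch and 0.620 (0.495 to 0.774) without it, and the fitted fall was 0.60 ± 0.12 (edgeR adjusted p = 0.000539). Both KO-labelled libraries lay below both WT libraries. Oasl2 was at 18.2 and 17.7 CPM in KO-labelled cells, against 22.8 CPM in both WT libraries, and fell by 0.34 ± 0.08 (edgeR adjusted p = 0.00324). Oas1a had only 27 and 28 reads in scratched and unscratched KO-labelled cells, against 35 and 45 reads in scratched and unscratched WT cells. That corresponds to 0.564 and 0.946 CPM in KO-labelled and 1.25 and 1.66 CPM in WT cells, and it fell by 0.97 ± 0.31 (edgeR adjusted p = 0.0219). Oas1a has close paralogs, so the assignment of its reads is uncertain.

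The proteins of the IFIT genes bind foreign RNA and restrain its translation. The 3 IFIT members were each lower in both KO-labelled libraries than in both WT libraries, where 27.6% of all genes were. Ifit2 was by far the most abundant, at 95.6 and 96.2 CPM in scratched and unscratched KO-labelled cells, against 118 and 113 CPM in scratched and unscratched WT cells. It fell by 0.27 ± 0.06 (edgeR adjusted p = 0.000755), with ratios of 0.812 (0.776 to 0.849) after the scratch and 0.848 (0.806 to 0.893) without it. It was the 1 member that passed under both edgeR and DESeq2. Ifit1 was at 5.41 and 4.93 CPM in KO-labelled and 6.70 and 6.24 CPM in WT cells, and Ifit3 was at 1.40 and 1.45 CPM in KO-labelled and 2.11 and 2.18 CPM in WT cells, scratched before unscratched. Neither passed (edgeR adjusted p = 0.0607 and 0.0681), although the ratio of Ifit3 after the scratch, 0.661 (0.459 to 0.955), was called. These 3 members are paralogs in 1 cluster on chromosome 19, and reads shared between them could be split in counting. Of the other IFIT genes, Ifit1bl1 was not tested, and Ifit3b overlapped between the genotypes. Ifit3b was at 0.981 and 0.980 CPM in scratched and unscratched KO-labelled cells, against 1.43 and 0.775 CPM in scratched and unscratched WT cells. It did not pass (edgeR adjusted p = 0.710).

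GBP proteins are interferon-induced GTPases that attack the vacuoles and membranes of intracellular microbes. Gbp2 was at 11.6 and 12.4 CPM in scratched and unscratched KO-labelled cells, against 18.2 and 15.7 CPM in scratched and unscratched WT cells. It fell by 0.50 ± 0.10 (edgeR adjusted p = 0.000318), and its ratio was 0.640 (0.566 to 0.723) after the scratch and 0.787 (0.683 to 0.907) without it. The groups did not overlap. Gbp7 was at 25.9 and 27.9 CPM in KO-labelled and 32.7 and 32.8 CPM in WT cells, in the same order, and fell by 0.29 ± 0.08 (edgeR adjusted p = 0.00578). Gbp3, the neighbour of both on chromosome 3, had 8.43 and 8.48 CPM in KO-labelled cells, against 10.4 and 9.85 CPM in WT cells, and did not pass (log2 difference -0.26, edgeR adjusted p = 0.0649). These 3 genes also belong to 1 paralog cluster. Exons of Gbp7 overlap Gm43802 on the same strand.

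In the PARP and DTX3L group, which modifies proteins with ADP-ribose and ubiquitin, 1 of 4 members fell. Parp12, an antiviral ADP-ribosyltransferase gene with zinc fingers, was at 46.5 and 48.7 CPM in scratched and unscratched KO-labelled cells, against 58.0 and 56.1 CPM in scratched and unscratched WT cells. It fell by 0.26 ± 0.06 (edgeR adjusted p = 0.000956), with no overlap between the groups. Parp9, Parp14 and Dtx3l had log2 differences between -0.05 and -0.01 and did not pass. Parp9 and Dtx3l share a divergent start region and overlap on opposite strands.

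Of the 7 tested members among the other effectors, Bst2 rose and Cmpk2 and Xaf1 fell. Bst2 was at 65.2 and 66.5 CPM in scratched and unscratched KO-labelled cells, against 60.5 and 58.3 CPM in scratched and unscratched WT cells, a difference of 0.15 ± 0.05 (edgeR adjusted p = 0.0371). The groups did not overlap, yet the call was lost when libraries were scaled to total counts (log2 difference 0.14). Cmpk2, a mitochondrial nucleotide kinase gene next to Rsad2, had 12 and 10 reads in KO-labelled cells, against 28 and 17 reads in WT cells, scratched before unscratched. It was at 0.251 and 0.338 CPM in KO-labelled cells, against 1.004 and 0.627 CPM in WT cells, in the same order. It was thus tested only through the scratched WT library, which favours a fall. Its fitted fall of 1.52 ± 0.47 (edgeR adjusted p = 0.0168) was the largest of the members and rested on the fewest reads. Its ratio was 0.250 (0.116 to 0.507) after the scratch and 0.539 (0.220 to 1.25) without it. Xaf1, a pro-apoptotic partner of XIAP, was at 5.37 and 6.32 CPM in KO-labelled cells, against 7.64 and 6.97 CPM in WT cells, and fell by 0.34 ± 0.12 (edgeR adjusted p = 0.0481). That call was lost at a minimum of 5 CPM and with TMM factors from the tested genes alone.

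The remaining effectors did not pass. Rtp4, a receptor transporter that restricts viral RNA replication, was at 4.34 and 4.77 CPM in scratched and unscratched KO-labelled cells, against 5.70 and 5.68 CPM in scratched and unscratched WT cells, and its ratio after the scratch, 0.762 (0.617 to 0.943), was called (additive fit, edgeR adjusted p = 0.0761). Ifi27 was higher in both KO-labelled libraries than in both WT libraries, at 50.0 and 54.9 CPM against 49.5 and 46.0 CPM, scratched before unscratched. The gap after the scratch, a ratio of 1.01 (0.945 to 1.08), was within counting error, and the fit did not call the gene (edgeR adjusted p = 0.118). Samd9l and Ifi44 had log2 differences of -0.06 and 0.28. Exons of Rtp4 overlap Gm45338 on the same strand.

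Members with and without a promoter match were set side by side for the genotype effect. Of 12 tested members with an ISRE core, 6 fell and 1 rose, with a median log2 difference of -0.29. Of 18 tested members with a window and no match, 6 fell and 1 rose, with a median of -0.06. Among the other genes, 16.7% of the 329 with an ISRE core fell and 17.3% rose, against 11.8% and 13.9% of the 9230 without one, with medians of 0.006 and 0.005. Whether these shares differ was not tested.

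The second comparison asked how the scratch acted on these genes. No member passed the additive test of the scratch, which is close to the share of 2.91% of all genes. Unadjusted edgeR p-values under 0.05 were found for 2 members, Uba7 (log2 difference -0.20) and Oasl1 (0.26). No share of all genes at that cutoff is given here, so the 2 are not read as a response. DESeq2 called 0 members, against 40 of the 12348 genes. Between scratched and unscratched KO-labelled cells, 0 of 36 members were called in either direction, against 2.66% of all genes. In WT cells 1 member was called, or 2.78%, against 4.79% of all genes in either direction. It was Irf7, higher with a ratio of 1.36 (1.06 to 1.75). With 36 tested members, these counts lie near the shares of all genes. The other members with a WT interval off 1 stayed under 1.3-fold, such as Ifi35 at 1.26 (1.13 to 1.40), Isg15 at 1.23 (1.02 to 1.49) and Gbp2 at 1.16 (1.01 to 1.32).

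The members leaned below their unscratched level in KO-labelled cells and above it in WT cells, by small amounts. After the scratch, 31 of 36 members lay below their unscratched level in KO-labelled cells, with a median log2 ratio of -0.08, where 47.0% of all genes lay below. In WT cells 27 of 36 members lay above their unscratched level, with a median of 0.05, where 54.5% of all genes lay above. For the difference of the log2 responses, KO-labelled minus WT, 32 of 36 members were below 0, where 53.6% of all genes were, and the median was -0.12 over the members and -0.01 over all genes. By the call rule of at least 1.3-fold with a counting interval off 0, 1 member was called lower, Irf7 at -0.50 (-0.95 to -0.06), against 1.51% of all genes, and 0 were called higher, against 2.49% of all genes. With the interval alone and no size limit, 7 of 36 members were lower, a share near the 15.1% of all genes. By the same rule 0 were higher, against 11.7% of all genes. The 7 were Irf7, Irf9, Nmi, Ifi35, Gbp2, Parp9 and Ifi27, with differences from -0.50 to -0.24. With 1 library per condition this difference has no residual degrees of freedom, the members all share the same 4 libraries, so the difference was not tested.

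**Figure D4:**
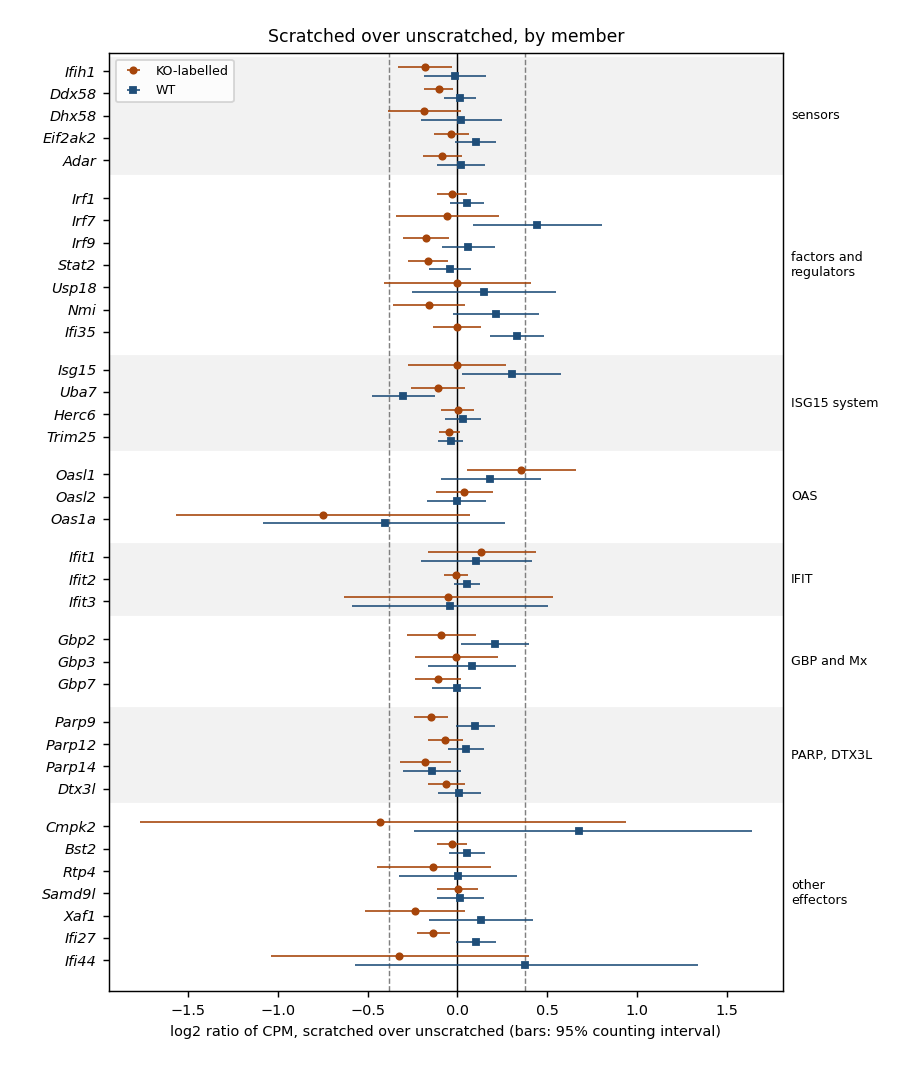
The log2 ratio of CPM, scratched over unscratched, for the 36 tested members in KO-labelled (brown circles) and WT cells (blue squares), with 95% counting intervals as bars; dashed lines mark 1.3-fold. Most brown points lie left of 0 and most blue points right of it, and only Irf7 in WT cells lies beyond a dashed line with an interval off 0.

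The signalling genes upstream of the members were measured as a separate set of lists. Of 27 tested genes for receptors, JAK-STAT and IRF signalling, interferon induction and negative regulation, 3 rose and 3 fell with the label, 11.1% each, close to the 13.8% and 12.2% of all genes, and 0 passed the test of the scratch. All 6 receptor genes were tested, and Ifngr1, a subunit of the interferon-gamma receptor, fell by 0.22 ± 0.05 (edgeR adjusted p = 0.00339). It was at 50.9 and 50.0 CPM in scratched and unscratched KO-labelled cells, against 60.0 and 57.5 CPM in scratched and unscratched WT cells. Ifnar1 and Ifnar2, which form the type I receptor, had log2 differences of -0.12 and -0.07 and did not pass.

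Irf5, a factor that acts downstream of Toll-like receptors, moved the other way from most members. It was at 13.4 and 14.9 CPM in scratched and unscratched KO-labelled cells, against 9.32 and 10.2 CPM in scratched and unscratched WT cells, and rose by 0.54 ± 0.10 (edgeR adjusted p = 0.000175). Its ratios were 1.44 (1.25 to 1.67) after the scratch and 1.46 (1.25 to 1.70) without it, so it was called in both states. Mavs, the adaptor of the RNA sensors, rose by 0.21 ± 0.06 (edgeR adjusted p = 0.0181), and the kinase gene Tbk1 fell by 0.22 ± 0.05 (edgeR adjusted p = 0.00167). Of the negative regulators, the cytokine-signalling suppressor Socs3 was at 47.3 CPM in both KO-labelled libraries, against 61.3 and 71.2 CPM in scratched and unscratched WT cells, and fell by 0.48 ± 0.06 (edgeR adjusted p = 3.89e-07). Ptpn6, the phosphatase SHP-1, rose by 1.14 ± 0.36 (edgeR adjusted p = 0.0188) from low counts, with 56 and 36 reads in scratched and unscratched KO-labelled cells, against 12 and 18 reads in scratched and unscratched WT cells. Of these 6 genes, only Socs3 also passed DESeq2's Wald test.

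A longer list of 64 further interferon-stimulated genes, of which 53 were tested, held more genes that fell than rose. It too was chosen with earlier results of these data known, so it is not an independent check on the members. In the additive fit 12 fell, or 22.6%, against 12.2% of all genes, and 5 rose, or 9.43%, against 13.8% of all genes, with a median log2 difference of -0.05. After the scratch 10 were called lower, or 18.9%, against 4.15% of all genes, and 1 higher, or 1.89%, against 5.85%. Without a scratch 6 were called lower, or 11.3%, against 5.93% of all genes, and 4 higher, or 7.55%, close to the 7.17% of all genes. The genes that fell included Nlrc5, the transactivator of MHC class I genes, with 5.53 and 4.80 CPM in scratched and unscratched KO-labelled cells, against 8.57 and 9.998 CPM in scratched and unscratched WT cells (-0.83 ± 0.12, edgeR adjusted p = 1.16e-05). Slfn8, a Schlafen family gene, fell by as much (-0.83 ± 0.11, edgeR adjusted p = 2.71e-06). Gbp9, of the GBP family, was at 16.6 and 17.6 CPM in KO-labelled cells, against 24.7 and 25.5 CPM in WT cells (-0.55 ± 0.08, edgeR adjusted p = 1.61e-05), and Ube2l6, the conjugating enzyme of ISG15, fell by 0.34 ± 0.07 (edgeR adjusted p = 0.000441). The helicase gene Ddx60 and Cd274, which encodes PD-L1, fell by 0.61 and 0.51. Sp100, Sp110, Trim21, Gbp4, Slfn9 and Tdrd7 fell by 0.28 to 0.52.

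Those that rose were of several kinds. Lgals3bp, a secreted glycoprotein gene, was at 82.7 and 84.7 CPM in scratched and unscratched KO-labelled cells, against 53.2 and 49.7 CPM in scratched and unscratched WT cells (0.70 ± 0.05, edgeR adjusted p = 1.18e-10). Samhd1, a dNTP hydrolase gene, was at 226 and 211 CPM in KO-labelled cells, against 181 and 160 CPM in WT cells (0.36 ± 0.06, edgeR adjusted p = 3.88e-05). Rnf213, Znfx1 and Ogfr rose by 0.37, 0.21 and 0.20. Rnf213 was the 1 gene of this list that passed the test of the scratch, by edgeR though not by DESeq2, and it fell after it, to 111 CPM in scratched against 146 CPM in unscratched KO-labelled cells and to 90.5 CPM in scratched against 107 CPM in unscratched WT cells. Cxcl10, an interferon-inducible chemokine gene, stayed at 2.40 to 3.05 CPM over the 4 libraries, and Ccl5 had 1 to 4 reads. Of the 17 genes of this list that passed edgeR's test of the genotype, DESeq2 kept Gbp9, Nlrc5, Slfn8, Slfn9 and Tdrd7 among those that fell and Lgals3bp, Samhd1 and Rnf213 among those that rose.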

How the data were processed

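Messenger RNA of 4 MLE-12 libraries was sequenced, with 1 library per condition. Raw counts were deposited for 46078 genes, and RPKM values (deposited by the authors, scaled by gene length and library size) for 14844 genes, of which 161 lack values. The submitters' processing notes name the mouse build mm10 and the tools HTSeq 0.11.3, STAR 2.7.9a, Trimmomatic 0.39 and edgeR 3.32.1 but assign no roles. Which annotation release was counted, and whether counting used strand, is not given in the sources used here. By GENCODE annotation of the same build, 17 of the 41 members share exon sequence with another gene, 6 on the same and 11 on the opposite strand. Counts of the 11 are uncertain where strand was not used. Counts of the 6 (Irf9, Uba7, Herc6, Gbp7, Parp14 and Rtp4) are uncertain with or without it.

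Of the 41 members, 39 were named in the RPKM table and 2 (Mx1, Zbp1) through reference names. The members and the gene lists were chosen with earlier results of these data known. A gene of the signalling lists is not reported here. Counts were scaled by TMM factors of 0.991 to 1.007, and genes with at least 1 CPM in at least 1 library were tested. Ratios carry exact 95% Clopper-Pearson intervals, and differences of responses carry delta-method intervals. Both cover counting error only, since no condition has a replicate. Whether reads carried molecular identifiers is not given in the sources used here. A count of 0 allows 3 counts. The secondary additive fit used edgeR 4.0.16 with R 4.3.3 (25.4 prior degrees of freedom, biological coefficient of variation 5.49%, false discovery rate 0.05). Values after ± are standard errors of the fit. "Rose" and "fell" are used of genes that passed it. Scripts were tested on simulated counts. Named genes are members that passed a fold call or an additive test, the most abundant members, and genes of the lists that passed an additive test, a fold call in both comparisons of a kind, or lay near 0. Alternatives covered scaling, DESeq2 1.42.0, filters, thresholds and the authors' RPKM. Promoters came from RefSeq, and Python 3.11.15 with pandas 2.3.3 and matplotlib 3.10.9 drew the figures.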

Additional observations from a re-analysis of the deposited data

Results flagged for a closer look

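In 5 interferon-stimulated genes the scratch response differed between the genotypes by at least 1.3-fold and beyond the counting interval. With 1 library per condition the differences were not tested. The log2 response of KO-labelled cells minus that of WT cells was -0.50 (-0.95 to -0.06) for Irf7, the 1 member among them. Of the longer list, it was -0.50 (-0.90 to -0.10) for Ifi47, -0.75 (-1.32 to -0.18) for Oas1b, -0.42 (-0.78 to -0.07) for Irgm2, and 0.43 (0.04 to 0.81) for Nlrc5. Of all genes, 1.51% were called lower and 2.49% higher by the same rule.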

How the results depend on the processing

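No paired analysis was possible because each condition has 1 library and the labels carry no replicate numbers. Leaving out a library would leave the additive fit without residual degrees of freedom, so it was not run.

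Under total counts, DESeq2 size factors and no filter beyond 10 counts, all 14 fold calls of members kept direction and call. At thresholds of 1.5-fold and 2-fold 6 and 2 of the 14 remained, a minimum of 5 CPM left 9 of them with a value, all still called, and the authors' RPKM kept 14 and 4 with pseudocounts of 0.1 and 1. After the scratch, members called lower in KO-labelled cells numbered 4 at 1.5-fold and 2 at 2-fold. They numbered 5 of 31 tested at a minimum of 5 CPM, and 3 with the authors' RPKM and a pseudocount of 1. The 2 at 2-fold were Oas1a and Cmpk2, which reached 1 CPM in WT libraries only. Counts over all genes under these settings, given below, pool both directions, so the member counts by direction cannot be set against a background. Without a scratch, members called lower numbered 1 at 5 CPM, 0 at 2-fold, 5 with RPKM and a pseudocount of 0.1, and 1 with a pseudocount of 1, and members called higher numbered 0 at 1.5-fold, 0 at 2-fold, and 2 and 0 with RPKM and pseudocounts of 0.1 and 1. For the scratch in WT cells, members called higher numbered 0 at 1.5-fold and 2-fold, and 2 and 0 with RPKM and those pseudocounts. In KO-labelled cells RPKM with a pseudocount of 0.1 called 1 lower. For the difference of responses, 0 members were called lower at 1.5-fold and 2-fold, and 3 and 0 with RPKM and those pseudocounts.

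In the additive fit of the genotype, total counts gave 1 member that rose, with Irf1 added to those that fell, and DESeq2's Wald test gave 0 that rose and 1 that fell. DESeq2 called 967 of all genes for the genotype and 40 for the scratch. TMM factors from the tested genes, an alternative added after seeing the data, called 144 genes for the scratch. None of the 15 members called for the genotype changed direction where it had a value. For the scratch, which called no member, 19 of 36 members lay below 0, against 23 with total counts and 18 with DESeq2's Wald test.

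Counts over all genes moved as well. KO-labelled against WT cells gave 661 after the scratch and 799 without it at 1.5-fold, 253 and 297 at 2-fold, and 619 and 942 with RPKM and a pseudocount of 1, and 768 after the scratch at 5 CPM. The scratch in KO-labelled and WT cells gave 160 and 298 at 1.5-fold, 38 and 114 at 2-fold, 144 and 314 at 5 CPM, and 110 and 293 with RPKM and a pseudocount of 1, and 503 in KO-labelled cells without a filter. The difference of responses gave 249 at 1.5-fold, 119 at 2-fold, 319 at 5 CPM, and 941 and 320 with RPKM and pseudocounts of 0.1 and 1.

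Depth limits the low members: Cmpk2, Oas1a, Usp18 and Ifit3 rest on 10 to 134 reads a library.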
